A study of Homo sapiens with 9 samples.

Results

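G1 cells of the PC9 line sampled after 28 days in osimertinib were compared with untreated G1 cells sampled at day 0. PC9 is a human lung adenocarcinoma line (labelled as non-small cell lung cancer, NSCLC) that grows on an activated epidermal growth factor receptor, EGFR. The comparison rests on 4 of the 9 RNA-seq libraries of the series, namely those labelled Day 28 G1 clone 1 and Day 28 G1 clone 7, against Day 0 G1 clone 1 and Day 0 G1 clone 7, so 2 libraries stood in each group and 1 pair in each clone. The day 28 cells had been kept in 500 nM osimertinib in DMSO throughout, and the day 0 cells are labelled untreated. The series has no untreated or vehicle library at day 28, so osimertinib, DMSO and 28 days of culture cannot be told apart. The word response below stands for the difference between the days. Cells of both groups carried the FUCCI4 reporter, with mKO2 fused to CDT1 and Clover fused to GMNN, and were fixed with glyoxal, made permeable with saponin and sorted by DAPI and then by reporter colour. The other 5 libraries (S and G2 cells of both days) served to check the phase labels, to estimate the spread and to ask whether the response differed between phases. What the 2 clones are is not described in the labels, and neither is whether libraries of a clone were grown as separate cultures. The p-values below therefore measure the spread between these libraries, which may be technical in part.

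EGFR signals through the RAS and ERK kinase cascade and through PI3K and AKT, and osimertinib binds covalently to the kinase domain of mutant EGFR. ERK activity drives its own feedback inhibitors as well as MYC and D-type cyclins, which carry cells past the restriction point of G1, while AKT keeps the FOXO transcription factors out of the nucleus. In G1 the RB-family pocket proteins hold the E2F factors in check until CDK4, CDK6 and CDK2 release them, after which replication genes are switched on, and the genes of mitosis follow later under DREAM, B-MYB and FOXM1.

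Each value below is the log2 of the deposited, normalised read value plus 1 for reads over a gene's coding span, introns included, and pairs of values are given for clone 1 and then clone 7. Over these spans 30.5 and 33.5 M reads were recovered at day 28, against 108.7 and 8.83 M reads at day 0, so the untreated clone 7 library was 12.3 times shallower than the untreated clone 1 library and 1 of its reads weighed 12.9 units, against 0.887 in clone 1. Counts of a few reads in that library carry a wide counting error. Reads over genes of the mitochondrial genome made up 19.6% and 8.61% at day 28, against 6.07% and 10.7% at day 0. Reads over genes spanning more than 300 kb made up 3.41% and 3.24% at day 28, against 0.734% and 1.05% at day 0. Reads over olfactory receptor genes, which lung cells are not known to use, ran at 0.00789 and 0.00771 per kb and M reads at day 28, against 0.00209 and 0.00454 at day 0. The part of these shares in the results that follow was tested only as far as given below.

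The sort labels were checked first. The 46 tested genes of G2 and mitosis averaged 9.75 and 8.86 in day 28 G1 cells, against 11.26 and 12.23 in day 0 G1 cells, and lay between 12.94 and 14.67 in the S and G2 libraries of both days. Every G1 library was thus below every S and G2 library in these genes, and the day 28 G1 libraries were the lowest of all. Of the untreated G1 libraries, that of clone 7 was the higher. The replication lists did not set the untreated G1 libraries apart in this way. Licensing genes averaged 12.72 and 12.43 in day 0 G1, against 12.67 and 12.36 in day 0 S and 12.17 in day 0 G2. DNA synthesis genes averaged 12.95 and 13.07 in day 0 G1, against 13.40 and 13.23 in day 0 S and 12.88 in day 0 G2. At day 28 both lists were lower in G1 than in S or G2. The 11 epithelial and lung carcinoma identity genes (EPCAM, CDH1, keratins, claudins, EGFR, MUC1 and ELF3) averaged 15.04 and 15.39 at day 28, against 15.55 and 15.50 at day 0. Of 14 leukocyte markers 2 passed the filter on low values, of 13 fibroblast and endothelial markers 4, and of 6 red blood cell genes none. The macrophage marker CD68 had 55 and 83 reads at day 28, against 1361 and 40 at day 0, and the endothelial marker PECAM1 had 19 and 24 reads at day 28, against 426 and 40 at day 0. PTPRC had 16 and 20 reads at day 28, against 4 and 0 at day 0, and HBB had no read in any of the 4 libraries.

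Of 12403 genes tested, 2462 (19.9%) were higher at day 28 in G1 and 2374 (19.1%) lower, so that 39.0% passed the test (limma, Benjamini-Hochberg adjusted p under 0.05). Of these, 2268 were at least 2-fold higher and 2086 at least 2-fold lower. The median log2 fold change over all tested genes was 0.02. The groups did not overlap in 36.1% of genes in the higher direction and in 35.3% in the lower. An exact permutation test of 2 libraries against 2 cannot give a two-sided p below 0.333, so single genes rest on the spread shared across libraries and genes. The balance of directions depended on scaling. Scaling by the median of ratios across genes gave 2281 higher and 2647 lower (46.3% of calls higher), with a median log2 fold change of -0.07. With totals taken over nuclear genes only, the median log2 fold change moved by 0.43 to 0.44 and the split became 3750 higher and 1348 lower (73.6% of calls higher, against 50.9%), and 1348 of the 2374 genes lower under the deposited scaling kept that call. A voom fit on the recovered reads, whose totals include mitochondrial genes, gave 3743 higher and 1668 lower (69.2% higher), with a median of 0.29. It kept all 2462 of the higher calls and 1664 of the 2374 lower calls. Using each gene's narrowest coding span gave 998 higher and 2012 lower (33.2% higher). Directions of lists below are relative to the deposited scaling. Counts of lists are to be read beside the 19.9% of all genes higher and the 19.1% lower. Besides the medians given beside their lists, those of p53 targets (-0.20), class I (-0.17), lysosome (-0.07) and identity genes (-0.26) lay at 0.22, 0.25, 0.36 and 0.17 with totals over nuclear genes. Since these are bulk samples, fewer cells with a transcript and less of it per cell cannot be told apart.

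The pairs of the 2 clones, which share no library, moved alike in most genes. Day 28 and day 0 differed in the same direction in both pairs in 9994 genes (80.6%), and across genes, which are not independent replicates, the differences of the pairs correlated with Pearson's r = 0.758 and Spearman's rho = 0.770. In 776 genes (6.26%) the pairs differed by more than 2 log2 units. Genes called higher had a median difference of 1.96 in clone 1 and 1.57 in clone 7, and genes called lower of -1.50 in clone 1 and -1.44 in clone 7.

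The largest rises were in genes with low values in untreated G1 cells. DCLK2, a doublecortin-like microtubule-associated kinase whose coding span lies at chr4:150079028-150256247 (GRCh38, plus strand), had values of 13.37 and 13.53 at day 28, against 7.70 and 6.70 at day 0. It rose by 6.25 ± 0.44 log2 units (SE, n = 2 libraries each; adjusted p = 0.0023), and the groups lay more than 5 log2 units apart. SEMA5A, a transmembrane semaphorin of axon guidance, had 14.24 and 13.67 at day 28, against 8.21 and 8.55 at day 0 (5.57 ± 0.54; adjusted p = 0.0023). CAMK1D, a calcium and calmodulin-dependent kinase, had 14.07 and 14.96 at day 28, against 9.66 and 9.62 at day 0 (4.88 ± 0.35; adjusted p = 0.0023). The other genes among the 15 largest rises were AMY2B and PSG5, whose reads cannot be told apart with certainty from their near-identical paralogs, ATG9B (autophagosome formation), CYP4F12 (a fatty acid hydroxylase), LBH (a transcriptional cofactor), PRR16, DGKI (a diacylglycerol kinase), TNNT2 (cardiac troponin T), ARL15 (a small GTPase), EXPH5 (a RAB27 effector), CLIC5 (a chloride channel family member) and BCAS1. They rose by between 4.83 and 6.81 log2 units. The genes were chosen with groups that do not overlap, and each of the 15 calls held when any 1 of the 4 G1 libraries was left out. The untreated clone 7 library held 5 to 127 reads of these genes, so their folds are imprecise. Without it the rise of AMY2B was 8.36 and that of PSG5 5.50.

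The largest falls took in secretory, cytoskeletal, chromatin and proliferation genes. AGR2, a disulfide isomerase of the secretory pathway, had 8.70 and 5.79 at day 28, against 11.86 and 13.88 at day 0 (-5.62 ± 1.17; adjusted p = 0.010). TGM2, a transglutaminase, had 7.97 and 10.54 at day 28, against 15.06 and 14.20 at day 0 (-5.37 ± 0.74; adjusted p = 0.0035). HMGA1, an architectural chromatin protein, had 10.52 and 11.22 at day 28, against 15.11 and 15.04 at day 0 (-4.21 ± 0.29; adjusted p = 0.0023). These genes too were chosen with groups that do not overlap, and the day 28 clones lay furthest apart in AGR2. LGALS1 (galectin-1), PHLDA1 (an ERK-responsive pleckstrin-homology protein), BLVRA (biliverdin reductase), S100A9 (a calcium-binding alarmin), CTSC (cathepsin C), VIM (vimentin), CALB2 (calretinin), MKI67 (the Ki-67 proliferation antigen), ETV4 (a PEA3 factor), RAMP1 (a receptor-activity modifier), CDKN3 (a CDK phosphatase) and TRBC2, which shares sequence with TRBC1, fell by between 3.72 and 5.06. Without the day 28 clone 7 library the adjusted p was 0.063 for AGR2, 0.053 for S100A9, 0.056 for MKI67 and 0.055 for RAMP1, and without that of clone 1 it was 0.063 for S100A9.

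**Figure D1:**
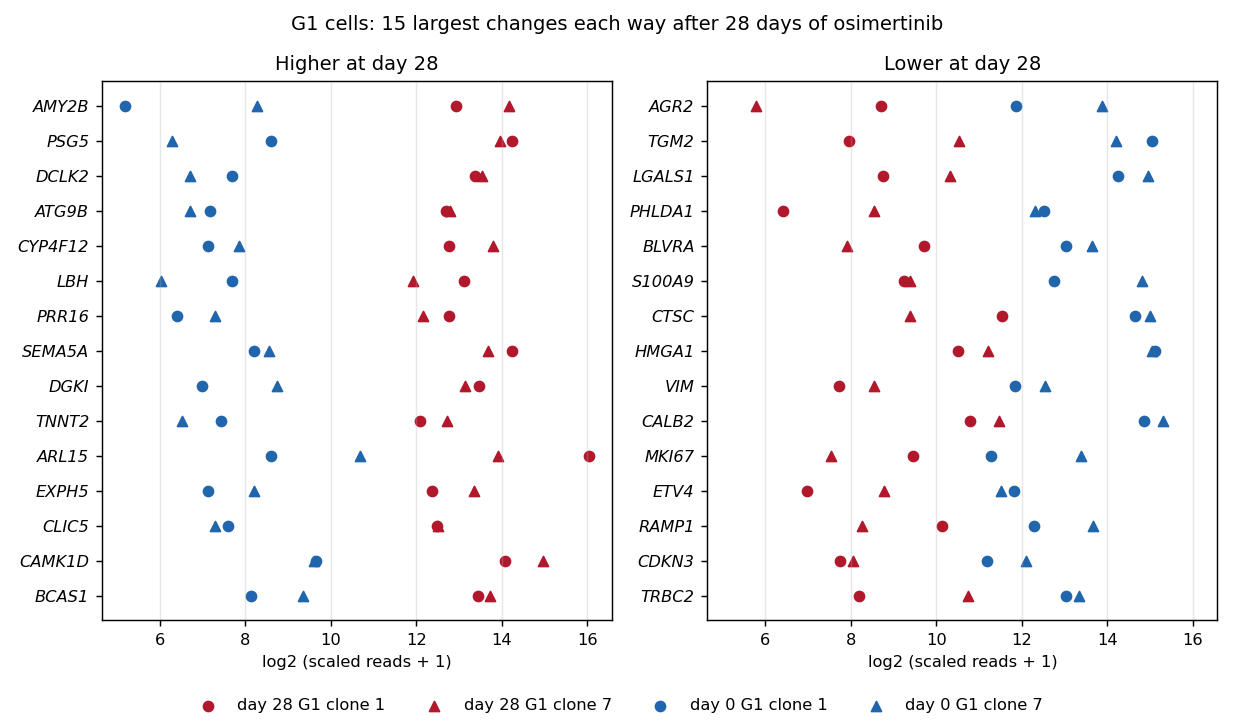
Normalised log2 values of the 15 largest rises (left) and the 15 largest falls (right) in each of the 4 G1 libraries. Red marks day 28 and blue day 0, circles are clone 1 and triangles clone 7. Genes were chosen by the size of the change with no overlap of groups, and the largest change shown is that of AMY2B (6.81).

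ERK target genes fell in treated G1 cells more often than they rose. Of 24 tested targets 12 fell and 1 rose, with a median log2 fold change of -1.66, against 0.02 over all genes and 19.1% of all genes lower. DUSP6, the phosphatase that ERK induces to switch itself off (chr12:89349254-89352039, GRCh38, minus strand), had 6.64 and 4.54 at day 28, against 10.70 and 11.74 at day 0. It fell by 5.63 ± 0.85 log2 units (adjusted p = 0.0042), although only 36 and 9 reads were behind the day 28 values, against 1869 and 266 at day 0. ETV4, a PEA3 transcription factor, had 6.99 and 8.78 at day 28, against 11.83 and 11.51 at day 0 (-3.79 ± 0.55; adjusted p = 0.0039). PHLDA1 had 6.42 and 8.54 at day 28, against 12.53 and 12.32 at day 0 (-4.94 ± 0.62; adjusted p = 0.0030). Clone 1 was the lower of the day 28 libraries in ETV4 and PHLDA1, and clone 7 in DUSP6. HMGA2, a chromatin protein, fell by 4.53 ± 0.93 (adjusted p = 0.0099), and MYC had 12.77 and 12.43 at day 28, against 14.30 and 14.36 at day 0 (-1.73 ± 0.25; adjusted p = 0.0038). SPRY4, a feedback inhibitor, was too low to test, with 14 and 0 reads at day 28, against 65 and 8 at day 0. Leaving out the day 28 clone 1 library left 6 ERK targets lower, and HMGA2 then had an adjusted p of 0.063, against 0.058 without the day 28 clone 7 library.

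EGFR and several other growth factor receptors were higher at day 28, and AXL was lower. Of 15 tested receptor tyrosine kinases 8 rose, namely EGFR, ERBB2, ERBB4, INSR, IGF1R, MET, FGFR1 and MERTK (53.3%, against 19.9% of all genes). The 3 that fell were AXL, TYRO3 and EPHB2 (20%, near the 19.1% of all genes). Of 8 tested EGF-family ligands 2 rose and none fell (25% higher, near the 19.9% of all genes). EGFR itself, the osimertinib target (chr7:55019278-55205617, GRCh38, plus strand), had 15.19 and 14.96 at day 28, against 12.52 and 13.89 at day 0. It rose by 1.87 ± 0.42 log2 units (adjusted p = 0.013), and the untreated clones lay further apart than the treated ones. INSR, the insulin receptor, had 11.65 and 11.44 at day 28, against 8.74 and 9.01 at day 0 (2.67 ± 0.46; adjusted p = 0.0058). IGF1R, the type 1 IGF receptor, had 12.79 and 12.76 at day 28, against 10.64 and 10.85 at day 0 (2.03 ± 0.39; adjusted p = 0.0082). These receptors did not overlap between the days. MET, the hepatocyte growth factor receptor, rose by 1.41 ± 0.33 (adjusted p = 0.015), ERBB4 by 2.27 ± 0.71 (adjusted p = 0.038) and ERBB2 by 0.80 ± 0.26 (adjusted p = 0.046). ERBB3, the kinase-impaired partner of ERBB2, was at 13.20 and 12.98 at day 28, against 12.43 and 11.66 at day 0, a difference of 1.04 ± 0.36 that missed the threshold (adjusted p = 0.054) and passed it with the clone as a block (0.012). AXL, a receptor tyrosine kinase tied to tolerance of EGFR inhibitors in other work, had 9.98 and 10.27 at day 28, against 12.20 and 11.82 at day 0 (-1.88 ± 0.28; adjusted p = 0.0040). Its relative TYRO3 fell by 2.18 ± 0.49 (adjusted p = 0.013).

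Many receptor calls were lost when 1 library was left out, a fit that leaves 1 library in its group. Over the 4 such fits the difference lay between 1.18 and 2.56 for EGFR and between 1.25 and 1.56 for MET. It lay between 1.93 and 2.14 for IGF1R, 1.39 and 3.16 for ERBB4, and 0.53 and 1.07 for ERBB2. The count of receptors called higher was 3 without the day 28 clone 1 library and 4 without that of clone 7. EGFR then had an adjusted p of 0.081 and 0.055, MET 0.071 and IGF1R 0.051 without day 28 clone 1, and ERBB4 0.11 and 0.16. ERBB2 had 0.13, 0.10 and 0.15 without the untreated clone 1, the untreated clone 7 and the day 28 clone 7 library, and ERBB4 0.13 without the untreated clone 1 library. Of the receptors that fell, 1 was called without the untreated clone 1 library, where TYRO3 had 0.055, and TYRO3 had 0.072 without day 28 clone 7. EGFR spans 186 kb with its introns. With the trend on span removed 4 receptors were called higher, and EGFR (0.80; adjusted p = 0.084), IGF1R (0.63; 0.30), MET (0.79; 0.12) and ERBB4 (0.21; 0.80) lost their calls. Over the narrowest coding span 6 of the 15 receptors could be tested and none was called higher, and EGFR differed by 0.21 log2 units (adjusted p = 0.64). The ligands that rose were NRG1, which binds ERBB3 and ERBB4 (1.76 ± 0.42; adjusted p = 0.015), and BTC (betacellulin), which binds EGFR and ERBB4 (1.70 ± 0.47; adjusted p = 0.026). Both were low, with 206 and 272 reads of NRG1 at day 28, against 205 and 14 at day 0. Neither kept its call without either day 28 library, BTC had an adjusted p of 0.070 without the untreated clone 1 library, and 4 ligands were called higher without that of clone 7. The NRG1 and ERBB4 differences each changed sign to -0.51 when the olfactory receptor background was subtracted. With that background subtracted 1 ligand was called higher (median 0.23), and 1 with the trend on span removed (median 0.53).

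Genes of mitosis had the lowest median of the 43 lists. Of 46 tested, 40 fell and none rose, with a median log2 fold change of -2.48 (-1.38 in clone 1 and -3.48 in clone 7). MKI67 (chr10:128099190-128125667, GRCh38, minus strand) had 9.45 and 7.54 at day 28, against 11.28 and 13.39 at day 0 (-3.84 ± 0.77; adjusted p = 0.0091). CDC20, the activator of the anaphase-promoting complex, had 10.83 and 10.01 at day 28, against 13.28 and 14.87 at day 0 (-3.66 ± 0.52; adjusted p = 0.0037). The untreated clone 7 library was the highest of the 4 in both of these genes. CCNB1, cyclin B1, fell by 2.77 ± 0.45 (adjusted p = 0.0050), KIF20A, a kinesin of cytokinesis, by 3.73 ± 0.88 (adjusted p = 0.015), and CENPA, the centromeric histone, by 3.72 ± 0.39 (adjusted p = 0.0024) from few reads (9 and 13 at day 28, against 400 and 32 at day 0). Without the day 28 clone 7 library 26 genes of the list were called lower and KIF20A had an adjusted p of 0.079, and without the shallow untreated clone 7 library 33 were called lower and KIF20A had 0.054.

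Promoters of many of these genes hold CCAAT boxes, bound by NF-Y, and TTTGAA, the core of the cell-cycle homology region at which DREAM and B-MYB complexes dock. Promoter sequences (RefSeq, GRCh38.p14, 250 bases before to 50 after the gene start) matched 39 of the 46 genes. CCAAT on either strand was found in 29 of 39 (74.4%), against 36.9% of 9874 promoters of tested genes and 35.7% of all 27305 promoters. TTTGAA on either strand was found in 25 of 39 (64.1%), against 9.57% and 15.4%. Of the 34 called genes with a promoter sequence 26 held CCAAT and 22 held TTTGAA. The list was chosen as genes of G2 and mitosis, so its high shares say nothing about the day 28 cells. Windows of 120 bases of 3 of the genes described above are shown to make these elements visible. Capitals mark both elements, with CCAAT read as ATTGG where it lies on the other strand, and the letters run 5′ to 3′ on the strand of the gene. The windows begin at positions -98, -141 and -143 from the start. In MKI67, a TTTGAA and an ATTGG share letters.
MKI67 chr10:128126402-128126521 (minus strand): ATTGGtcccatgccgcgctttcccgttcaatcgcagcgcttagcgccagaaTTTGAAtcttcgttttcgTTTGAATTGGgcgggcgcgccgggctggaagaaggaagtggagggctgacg
KIF20A chr5:138178971-138179090 (plus strand): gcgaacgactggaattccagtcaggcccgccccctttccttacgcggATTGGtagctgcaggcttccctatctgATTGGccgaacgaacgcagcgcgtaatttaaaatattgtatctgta
CDC20 chr1:43358838-43358957 (plus strand): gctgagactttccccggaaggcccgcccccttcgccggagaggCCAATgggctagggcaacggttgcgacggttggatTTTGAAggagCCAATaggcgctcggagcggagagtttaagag
MKI67 and CDC20 hold both elements and KIF20A holds only CCAAT in its 300 bases. A match is a description of the letters and was not tested against binding.

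Replication genes were lower as well. Of 23 licensing genes 15 fell and 1 rose (median -1.67), and of 26 genes of DNA synthesis and nucleotide supply 17 fell and none rose (median -1.34). MCM5, a subunit of the replicative helicase, had 12.77 and 12.00 at day 28, against 15.13 and 15.06 at day 0 (-2.71 ± 0.31; adjusted p = 0.0025). CDC6, which loads that helicase, had 11.25 and 10.76 at day 28, against 13.85 and 13.36 at day 0 (-2.60 ± 0.29; adjusted p = 0.0024). RRM2, the regulatory subunit of ribonucleotide reductase, had 12.28 and 10.90 at day 28, against 14.70 and 14.93 at day 0 (-3.22 ± 0.43; adjusted p = 0.0034). Day 28 libraries were below day 0 libraries by more than 2 log2 units in each of the 3. PCNA, the polymerase clamp, fell by 2.70 ± 0.33 (adjusted p = 0.0027), PRIM1, a primase subunit, by 2.83 ± 0.32 (adjusted p = 0.0025), FEN1, the flap nuclease, by 2.50 ± 0.28 (adjusted p = 0.0024) and GINS2 by 2.85 ± 0.43 (adjusted p = 0.0042). Of 28 genes of mutagenesis and repair 9 fell and 1 rose, and those that fell included EXO1 (-2.35 ± 0.35), MSH6 of mismatch repair (-2.21 ± 0.27) and the uracil glycosylase UNG (-1.77 ± 0.45) (adjusted p between 0.0028 and 0.019). The counts were 3 higher and 5 lower without the untreated clone 7 library, and 2 higher and 3 lower without the day 28 clone 7 library. The UNG call was lost without the untreated clone 1 library (adjusted p = 0.086) and without the day 28 clone 7 library (0.11), and the MSH6 difference was 0.18 over its narrowest span.

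**Figure D2:**
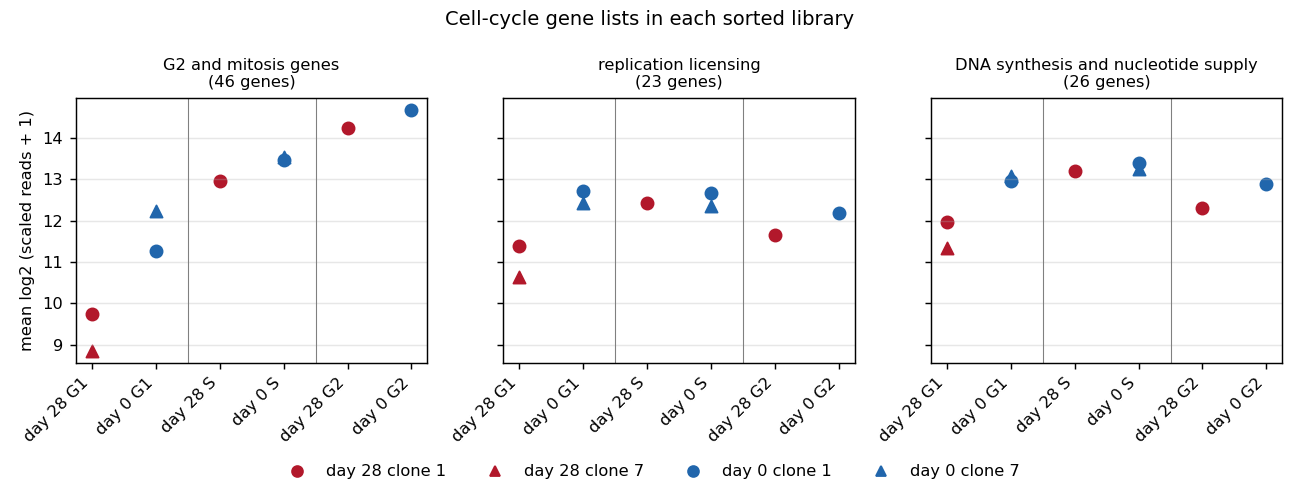
Mean normalised log2 value of the tested genes of 3 cell-cycle lists in each of the 9 libraries, by day and sorted phase. Red marks day 28 and blue day 0, circles are clone 1 and triangles clone 7. In the mitosis panel the day 28 G1 libraries (9.75 and 8.86) lie below the day 0 G1 libraries (11.26 and 12.23), while S and G2 libraries of both days lie at 12.94 or above.

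The genes that govern exit from G1 did not move as 1 group. CCNE1, cyclin E1, had 10.54 and 10.37 at day 28, against 12.31 and 12.61 at day 0 (-2.0 ± 0.35; adjusted p = 0.0058). CDK4 had 12.50 and 12.53 at day 28, against 14.25 and 14.08 at day 0 (-1.65 ± 0.23; adjusted p = 0.0034). CDK6, which pairs with the same D-type cyclins, was higher, with 12.36 and 12.32 at day 28, against 7.40 and 10.26 at day 0 (3.51 ± 0.84; adjusted p = 0.016). The groups did not overlap in CDK6, but the untreated clones lay far apart and the adjusted p was 0.091 without the day 28 clone 1 library and 0.082 without that of clone 7. CCND1, cyclin D1, was at 10.65 and 11.35 at day 28, against 12.28 and 11.26 at day 0, so that the groups overlapped (-0.77 ± 0.44; adjusted p = 0.20). CCNE2, cyclin E2, differed by -0.78 ± 0.67 (adjusted p = 0.38). CDK3 rose by 2.60 ± 0.28 (adjusted p = 0.0024) and CDC25A, the phosphatase that activates CDK2, fell by 2.58 ± 0.58 (adjusted p = 0.013, and 0.076 without the day 28 clone 7 library). In all, 3 of 13 tested G1 cyclins, CDKs and their regulators rose and 4 fell, and without either day 28 library 1 was called higher.

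Among CDK inhibitors and pocket proteins 2 of 10 rose (20%, near the 19.9% of all genes) and none fell. Their median of -0.13 became 0.29 with totals over nuclear genes. CDKN2B, the CDK4 and CDK6 inhibitor p15, had 11.25 and 11.75 at day 28, against 9.66 and 9.05 at day 0 (2.15 ± 0.39; adjusted p = 0.0070). RBL2, the pocket protein p130 of the DREAM complex, had 13.19 and 12.52 at day 28, against 11.48 and 11.20 at day 0 (1.51 ± 0.31; adjusted p = 0.010, and 0.053 without the day 28 clone 1 library). Over the narrowest spans CDKN2B differed by 1.15 (adjusted p = 0.18) and RBL2 by 1.04 (adjusted p = 0.32). The inhibitors usually read as marks of arrest did not pass the test. CDKN1A (p21) was at 8.33 and 8.50 at day 28, against 9.16 and 7.94 at day 0 (-0.14 ± 0.67; adjusted p = 0.88). CDKN1B (p27) was at 11.87 and 10.76 at day 28, against 11.65 and 11.86 at day 0 (-0.44 ± 0.37; adjusted p = 0.37). CDKN2C (p18) differed by -1.46 ± 0.66 (adjusted p = 0.11), RB1 by 0.39 ± 0.33 (adjusted p = 0.38) and RBL1 (p107) by 0.33 ± 0.45 (adjusted p = 0.58). The errors given are standard errors, so changes larger than the errors themselves are not excluded for these genes. The sign of CDKN1A, CDKN1B, RB1 and RBL1 differed between the clone pairs. Of 10 E2F factors and partners 2 rose and 3 fell (20% and 30%, against 19.9% and 19.1% of all genes). E2F1 had 10.84 and 9.68 at day 28, against 12.27 and 12.09 at day 0 (-1.92 ± 0.43; adjusted p = 0.013, and 0.055 without the day 28 clone 7 library), and the repressor E2F8 fell by 2.12 ± 0.42 (adjusted p = 0.0086). Of 19 p53 targets 1 rose and 3 fell (21.1% called, against 39.0% of all genes). With totals over nuclear genes 5 were higher and 1 lower, and without any 1 of the 4 G1 libraries 1 was lower. AEN, an apoptosis-enhancing nuclease, fell by 3.02 ± 0.61 (adjusted p = 0.0091).

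CDT1 and GMNN, parts of which are in the reporter, varied more between the untreated clones than between the days. CDT1 was at 14.04 and 12.76 at day 28, against 15.65 and 12.79 at day 0 (-0.83 ± 0.90; adjusted p = 0.49). GMNN was at 13.13 and 12.58 at day 28, against 15.39 and 12.93 at day 0 (-1.30 ± 0.71; adjusted p = 0.18). Reads of the reporter and of the cell's own genes cannot be told apart here. Without the untreated clone 7 library both passed the test (adjusted p = 0.041 for CDT1 and 0.0074 for GMNN), and without that of clone 1 CDT1 differed by 0.61.

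Biosynthetic programmes fell together in both clones. Of 55 cytosolic ribosomal protein genes 50 fell (90.9%, against 19.1% of all genes) and none rose, and day 28 lay below day 0 without overlap in all 55, against 35.3% of all genes (median -1.64; -1.59 in clone 1 and -1.65 in clone 7). RPL27, a subunit of the large ribosomal particle (chr17:42998751-43002920, GRCh38, plus strand), fell by 2.68 ± 0.26 (adjusted p = 0.0023), with 5972 and 5195 reads at day 28, against 96944 and 7814 at day 0. RPS2 fell by 2.49 ± 0.49 (adjusted p = 0.0087), and RPL7 and RPL29 by 2.32 ± 0.38 and 2.02 ± 0.37. These genes have many processed copies in the genome, and how the counting treated them is not given in the sources used here. Of 34 ribosome biogenesis genes 24 fell and none rose (median -1.24). NHP2, a core protein of box H/ACA particles, had 12.05 and 12.33 at day 28, against 14.56 and 14.66 at day 0 (-2.42 ± 0.24; adjusted p = 0.0023), and FBL, the box C/D methyltransferase fibrillarin, fell by 2.23 ± 0.28 (adjusted p = 0.0031). POLR1E, a subunit of RNA polymerase I, fell by 2.83 ± 0.43 (adjusted p = 0.0042). When the day 28 clone 1 library was left out, 32 ribosomal protein genes and 15 biogenesis genes were called lower, and RPS2 had an adjusted p of 0.058.

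Most glycolysis genes fell. Of 23 genes 16 fell and 2 rose (median -1.90). ENO1, enolase (chr1:8861360-8874908, GRCh38, minus strand), had 14.58 and 15.13 at day 28, against 17.82 and 17.58 at day 0 (-2.84 ± 0.31; adjusted p = 0.0024). TPI1, triosephosphate isomerase, had 13.83 and 14.45 at day 28, against 16.92 and 17.34 at day 0 (-2.99 ± 0.33; adjusted p = 0.0024). LDHB, a lactate dehydrogenase subunit, fell by 2.68 ± 0.32 (adjusted p = 0.0027). The glucose transporter SLC2A3 went the other way, with 14.31 and 13.36 at day 28, against 11.59 and 10.97 at day 0 (2.55 ± 0.45; adjusted p = 0.0062). Each of these 4 genes kept its call when any 1 G1 library was left out.

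Sterol and fatty acid synthesis fell as well. Of 24 cholesterol synthesis and uptake genes 16 fell and none rose (median -1.50; -2.14 in clone 1 and -1.06 in clone 7), and of 12 fatty acid synthesis genes 7 fell and none rose (median -1.06). INSIG1, which retains the SREBP complex in the endoplasmic reticulum, had 9.22 and 9.27 at day 28, against 12.01 and 11.60 at day 0 (-2.56 ± 0.32; adjusted p = 0.0030). The 4 values of INSIG1 formed tight pairs within each day. ACAT2, a thiolase that makes acetoacetyl-CoA, fell by 2.63 ± 0.36 (adjusted p = 0.0035). SCD, the stearoyl-CoA desaturase, had 6.75 and 7.40 at day 28, against 11.30 and 10.20 at day 0 (-3.67 ± 0.57; adjusted p = 0.0044), and FASN, fatty acid synthase, fell by 1.99 ± 0.25 (adjusted p = 0.0031). The count of cholesterol genes called lower was 7 without the day 28 clone 1 library, and 9 without the untreated clone 1 library. CCAAT was found in 14 of the 17 cholesterol genes with a promoter sequence (82.4%), against 36.9% of promoters of tested genes and 35.7% of all. TCACNCCAC, a form of the sterol regulatory element, was found in 1 of 17 (5.88%), against 1.04% of promoters of tested genes and 1.15% of all. Of the 9 called genes among the 17, 7 held CCAAT and 0 held TCACNCCAC. The list was chosen as cholesterol genes, so these shares say nothing about the day 28 cells.

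Nuclear genes of the respiratory chain fell, while mRNAs of the mitochondrial genome mostly did not pass the test. Of 44 nuclear genes 34 fell and none rose (median -1.23). ATP5MC3, a subunit of the ATP synthase rotor, had 14.14 and 14.24 at day 28, against 16.47 and 16.68 at day 0 (-2.38 ± 0.26; adjusted p = 0.0024), and UQCRFS1, the Rieske protein of complex III, fell by 2.28 ± 0.25 (adjusted p = 0.0024). Of the 13 mRNAs of the mitochondrial genome 1 passed the test. They averaged 19.54 and 18.14 at day 28, against 17.78 and 18.85 at day 0, so that all 13 were higher at day 28 in clone 1 (median 1.61) while 10 of 13 were lower in clone 7 (median -1.02). MT-CO1, for example, was at 21.68 and 20.79 at day 28, against 20.16 and 21.66 at day 0. The exception was MT-ND6, the single mRNA encoded on the light strand, which had 14.15 and 13.47 at day 28, against 10.16 and 11.25 at day 0 (3.11 ± 0.41; adjusted p = 0.0033). MT-ND6 was higher at day 28 in both clones and was the highest riser of the 13 in each. The count of nuclear genes called lower was 18 without the day 28 clone 1 library, and 20 without the untreated clone 7 library.

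**Figure D3:**
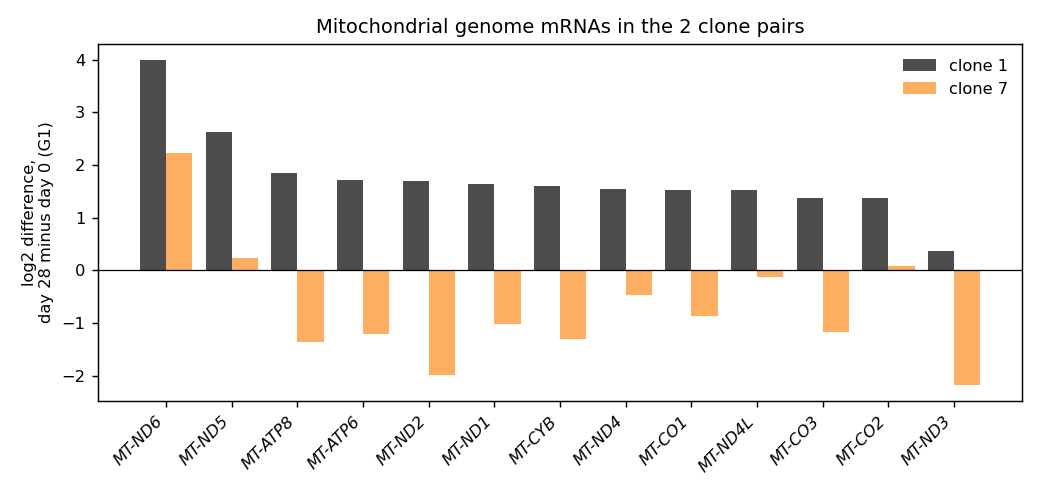
Log2 difference of day 28 minus day 0 in G1 for each of the 13 mRNAs of the mitochondrial genome, for clone 1 (dark) and clone 7 (orange), 1 library against 1 in each clone. Clone 1 is above 0 for all 13, clone 7 for 3, and MT-ND6 has the tallest bar in both.

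Genes of the unfolded protein response and chaperones fell more often than they rose. Of 34 genes of the ATF4 and unfolded protein responses 15 fell and 2 rose (median -0.78). Of 18 tested heat shock chaperones 12 fell and none rose (median -1.28). The listed chaperone CRYAB did not pass the filter on low values. It had 880 and 338 reads at day 28, against 45 and 0 at day 0, so its rise is not in these counts. HSPA8, the constitutive HSC70 chaperone, had 14.63 and 15.25 at day 28, against 17.64 and 17.59 at day 0 (-2.67 ± 0.31; adjusted p = 0.0026), and the mitochondrial chaperonin HSPD1 fell by 1.84 ± 0.29 (adjusted p = 0.0046). TRIB3, a pseudokinase induced by ATF4, had 8.42 and 8.25 at day 28, against 11.96 and 11.71 at day 0 (-3.50 ± 0.36; adjusted p = 0.0024). NUPR1, a small stress-induced chromatin protein, was 1 of the 2 risers, with 11.08 and 10.35 at day 28, against 6.75 and 6.03 at day 0 (4.32 ± 0.72; adjusted p = 0.0053, with 5 reads in the untreated clone 7 library). PDIA6, a disulfide isomerase, fell by 2.32 ± 0.24 (adjusted p = 0.0024). Of 31 NRF2 targets 7 fell (22.6%, near the 19.1% of all genes) and 2 rose. Those that fell included ABCC2 (-3.00 ± 0.40; adjusted p = 0.0034), an efflux pump, and PGD (-2.44 ± 0.24; adjusted p = 0.0023) of the pentose phosphate pathway. NQO1 fell by 1.82 ± 0.42 (adjusted p = 0.014), which became 0.068 without the untreated clone 1 library, 0.076 without the day 28 clone 1 library and 0.052 without that of clone 7. The ATF4 and unfolded protein list had 7 genes called lower without the day 28 clone 1 library, 9 without the untreated clone 1 library and 10 without the day 28 clone 7 library.

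**Figure D4:**
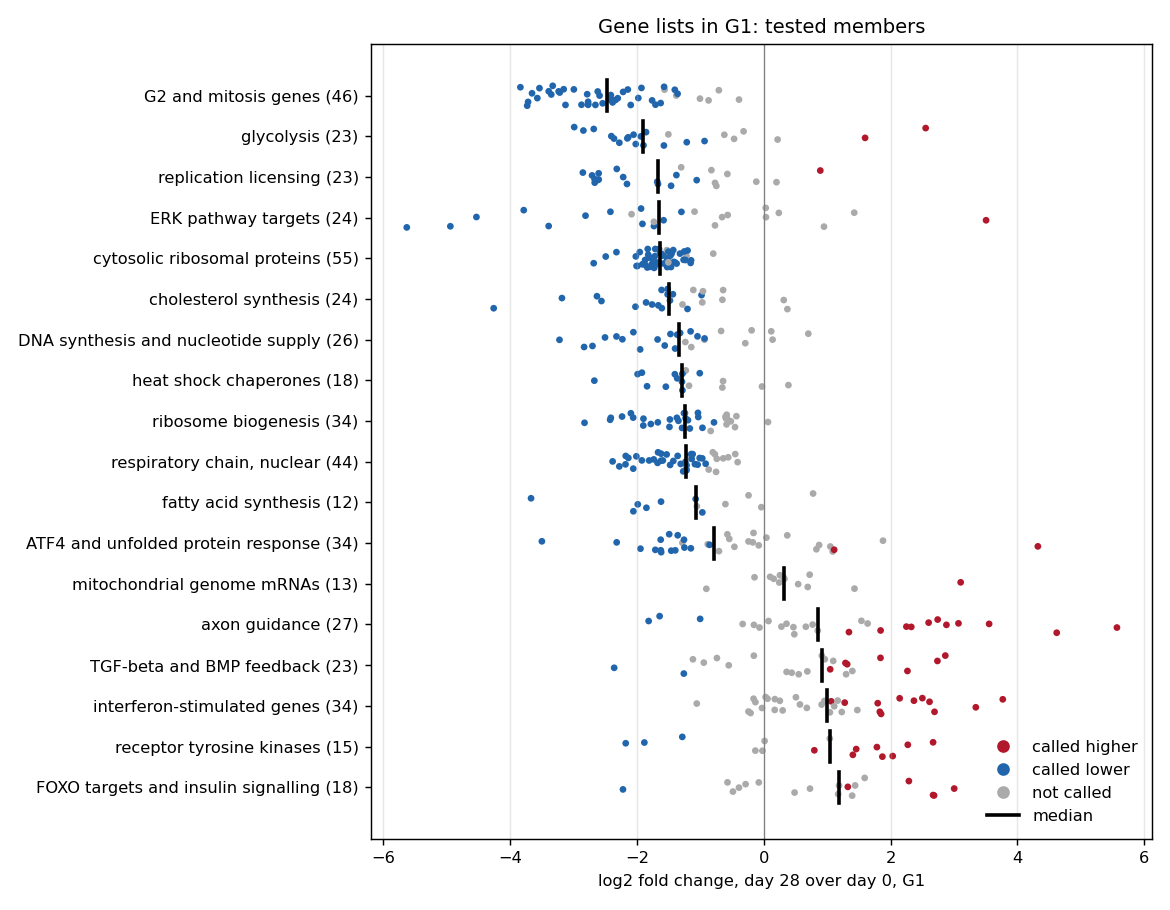
Log2 fold change of day 28 over day 0 in G1 for the tested members of 18 gene lists, with the number of members in brackets. Red points were called higher, blue lower and grey neither (limma, adjusted p under 0.05), black bars are medians, and vertical jitter only separates points. Medians run from -2.48 in the mitosis list at the top to 1.18 in the FOXO list at the bottom.

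A share of the interferon-stimulated genes rose. Of 34 tested 12 rose and none fell, with a median of 1.00 (1.43 in clone 1 and 0.50 in clone 7), against 19.9% of all genes higher. STAT2, a subunit of the ISGF3 factor of type I interferon signalling, had 13.56 and 12.55 at day 28, against 10.17 and 10.56 at day 0 (2.69 ± 0.39; adjusted p = 0.0039). IRF7, which amplifies interferon production, had 11.58 and 10.56 at day 28, against 8.52 and 8.39 at day 0 (2.62 ± 0.43; adjusted p = 0.0053). IFI44 had 12.66 and 10.53 at day 28, against 7.43 and 8.21 at day 0 (3.77 ± 0.72; adjusted p = 0.0079). Clone 1 was the higher of the day 28 libraries in each of the 3. Genes of the list too low to test included IFI44L, with 428 and 10 reads at day 28, against 4 and 1 at day 0. OAS2 had 299 and 29, against 16 and 0, and SAMD9 had 48 and 23, against 114 and 5. IFI6, a mitochondrial survival protein, rose by 3.35 ± 0.95 (adjusted p = 0.029), which became 0.17 without the day 28 clone 1 library and 0.11 without the untreated clone 7 library. The list had 7 genes called higher without the day 28 clone 1 library. The class I antigen presentation genes, which interferons also induce, did not follow, with 1 of 16 higher (HLA-F, 1.5 ± 0.33; adjusted p = 0.012, and 0.069 without the day 28 clone 1 library) and 1 of 16 lower (PSMB8, an immunoproteasome subunit, -1.17 ± 0.23; adjusted p = 0.0089). In the main fit 12.5% of these 16 were called, against 39.0% of all genes. With the clone as a replicate block 3 of these 16 were higher and 2 lower.

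Promoters of many interferon-stimulated genes carry the interferon-stimulated response element, a GAAA repeat with 2 bases between the copies, at which ISGF3 and the IRFs bind. It was found, on either strand, in 19 of 28 promoters of the list (67.9%), against 2.66% of promoters of tested genes and 3.65% of all promoters. The list was chosen as interferon-stimulated, so its high share says nothing about the day 28 cells. Of the 9 called genes with a promoter sequence 6 held the element. Windows of 2 of the genes described are shown with it in capitals (TTTC repeats on the other strand), beginning at positions -78 and -175 from the gene start, in the same orientation and source as above.
IFI44 chr1:78649711-78649830 (plus strand): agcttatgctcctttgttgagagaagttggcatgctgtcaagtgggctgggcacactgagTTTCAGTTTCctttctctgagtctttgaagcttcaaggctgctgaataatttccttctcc
IFI6 chr1:27672248-27672367 (minus strand): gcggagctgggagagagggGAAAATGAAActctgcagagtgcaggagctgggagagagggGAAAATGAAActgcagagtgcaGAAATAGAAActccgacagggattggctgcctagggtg
IFI44 holds 1 copy and IFI6 3 copies of the element in its 300 bases.

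Epithelial and lineage genes changed in part. Of 30 epithelial adhesion genes 4 rose and 2 fell (20% called, against 39.0% of all genes). GRHL2, a transcription factor that maintains epithelial identity, had 14.51 and 13.98 at day 28, against 11.91 and 12.46 at day 0 (2.06 ± 0.36; adjusted p = 0.0060). EPCAM, an epithelial adhesion molecule, had 14.55 and 14.96 at day 28, against 16.13 and 16.40 at day 0 (-1.51 ± 0.27; adjusted p = 0.0067). TJP1, the tight junction protein ZO-1, rose by 1.39 ± 0.30 (adjusted p = 0.011, and 0.053 without the day 28 clone 1 library). Of 13 keratins 4 rose and none fell (30.8% called, against 39.0% of all genes). KRT16, a keratin of stressed squamous epithelium, had 14.44 and 16.65 at day 28, against 12.90 and 11.44 at day 0 (3.37 ± 0.72; adjusted p = 0.011). KRT4, KRT13 and KRT23 rose by 2.97 ± 0.83, 1.91 ± 0.47 and 1.29 ± 0.33, and 2 keratins were called higher without either day 28 library or without the untreated clone 1 library, and 2 epithelial adhesion genes without either day 28 library. The keratin and adhesion medians were -0.05 and 0.26, and the keratin median became 0.38 with totals over nuclear genes, while the adhesion median became -0.15 over the narrowest spans. Over the narrowest spans 8 of the 13 keratins and 21 of the 30 adhesion genes could be tested, and none was called higher.

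Lung lineage and mucin genes included both large rises and large falls. Of 15 tested genes of alveolar and airway lineage 5 rose and 2 fell (33.3% and 13.3%, against 19.9% and 19.1% of all genes). Another 15 of the 30 listed, among them the surfactant genes SFTPA1, SFTPB and SFTPC, were too low to test. MUC16, a transmembrane mucin, had 15.71 and 15.75 at day 28, against 10.08 and 12.59 at day 0 (4.39 ± 0.87; adjusted p = 0.0086, 0.060 without the day 28 clone 1 library and 0.055 without that of clone 7). CLIC5, which marks type 1 alveolar cells, had 12.49 and 12.51 at day 28, against 7.60 and 7.28 at day 0 (5.06 ± 0.45; adjusted p = 0.0023). NAPSA, an aspartic protease of type 2 alveolar cells, had 441 and 422 reads at day 28, against 130 and 2 at day 0. AGR2, given above, went the other way. Without either day 28 library 3 genes of this list were called higher. Of 18 listed complement genes 11 could be tested, of which 3 rose and 1 fell (36.4% called, against 39.0% of all genes). Among those too low to test, C2 had 297 and 470 reads at day 28, against 51 and 3 at day 0. SERPING1 had 427 and 132, against 45 and 0. CFI went the other way in clone 1, with 9 and 8 reads, against 55 and 0. CD55, which disarms complement on the cell surface, had 14.71 and 14.78 at day 28, against 12.78 and 12.51 at day 0 (2.1 ± 0.26; adjusted p = 0.0030). C3 fell by 2.22 ± 0.42 (adjusted p = 0.0079, and 0.051 without the day 28 clone 7 library). With the clone as a replicate block 6 complement genes were called higher.

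Mesenchymal genes were split between falling and rising members. Of 15 tested 6 fell and 3 rose (40% and 20%, against 19.1% and 19.9% of all genes), with a median of -1.42. VIM, vimentin, had 7.73 and 8.54 at day 28, against 11.85 and 12.54 at day 0 (-4.06 ± 0.47; adjusted p = 0.0026). LGALS1 had 8.76 and 10.32 at day 28, against 14.26 and 14.95 at day 0 (-5.06 ± 0.54; adjusted p = 0.0024). TGFBI, a secreted matrix protein induced by TGF-beta, had 11.51 and 11.50 at day 28, against 14.65 and 14.85 at day 0 (-3.25 ± 0.24; adjusted p = 0.0023). Day 28 libraries were more than 3 log2 units below day 0 libraries in each of the 3. TAGLN, an actin-binding protein, was among the risers, with 562 and 341 reads at day 28, against 217 and 3 at day 0. The mesenchymal factors SNAI1, TWIST1 and ZEB2 and the cadherin CDH2 were too low to test. No mesenchymal gene was called higher without the day 28 clone 1 library.

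Collagens and laminins changed in both directions. Of 23 tested 7 rose and 3 fell (30.4% and 13%, against 19.9% and 19.1% of all genes), with a median of 0.28. COL16A1 (chr1:31652651-31702193, GRCh38, minus strand), a fibril-associated collagen, had 16.68 and 16.88 at day 28, against 12.57 and 11.96 at day 0 (4.52 ± 0.31; adjusted p = 0.0023). COL4A3, a basement membrane collagen, rose by 2.79 ± 0.50 (adjusted p = 0.0066), and COL5A1 by 2.90 ± 0.54 (adjusted p = 0.0071, and 0.057 without the day 28 clone 1 library). COL13A1, a transmembrane collagen, was at 6.06 and 6.60 at day 28, against 10.69 and 13.95 at day 0 (-5.98 ± 1.36; adjusted p = 0.013). Its adjusted p was 0.089 without the day 28 clone 1 library and 0.066 without that of clone 7. Of these genes 4 were called higher and 1 lower without the day 28 clone 1 library. The list had a median span of 119 kb, and its median was -0.23 with the trend on span removed.

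Axon guidance genes, many of them also made by epithelia, rose more often than they fell. Of 27 tested 11 rose and 3 fell (median 0.85). SLIT2, a secreted ROBO ligand, rose by 4.62 ± 0.69 (adjusted p = 0.0040), with 1297 and 573 reads at day 28, against 142 and 5 at day 0. NTN1, netrin-1, had 11.55 and 10.85 at day 28, against 7.81 and 8.45 at day 0 (3.07 ± 0.44; adjusted p = 0.0037). SEMA3A, a secreted semaphorin, rose by 3.56 ± 0.65 (adjusted p = 0.0070). When the day 28 clone 7 library was left out, 7 genes of the list were called higher and none lower. These are long genes (median span 112 kb), where the median tested gene spans 25.8 kb. Of 1555 tested genes spanning over 100 to 300 kb, 44.8% were called higher and 5.14% lower. In this list the shares were 40.7% and 11.1%, so its share of rises was no higher than that of genes of like span. With the trend on span removed 9 genes of the list were higher and 2 lower (median 0.62).

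Genes called higher made up 37% of the YAP and TEAD list, 30.4% of the TGF-beta and BMP list and 30% of the Wnt list, against 19.9% of all genes. Of 27 YAP and TEAD targets and factors 10 rose and 4 fell (median 0.77). TEAD1, the DNA-binding partner of YAP, had 13.76 and 13.47 at day 28, against 9.34 and 11.22 at day 0 (3.34 ± 0.57; adjusted p = 0.0057), and PTPN14, a phosphatase that restrains YAP, had 14.42 and 13.82 at day 28, against 9.90 and 11.44 at day 0 (3.45 ± 0.50; adjusted p = 0.0039). Of 23 TGF-beta and BMP genes 7 rose and 2 fell (median 0.92). BMPR2, the type 2 BMP receptor, had 12.55 and 12.62 at day 28, against 9.89 and 9.55 at day 0 (2.86 ± 0.29; adjusted p = 0.0023), and SKIL, a SMAD corepressor, rose by 2.27 ± 0.39 (adjusted p = 0.0057). The BMP antagonist NOG fell by 2.36 ± 0.46 (adjusted p = 0.0083, and 0.059 without the day 28 clone 1 library). Of 20 Wnt factors and feedback genes 6 rose and 4 fell (median 0.64), and with totals over nuclear genes 9 were higher and 1 lower. With the trend on span removed the Wnt median was 0.14, with 4 higher and 2 lower. The YAP and TEAD median was then 0.73, with 9 higher and 4 lower. That of the TGF-beta and BMP list was 0.79, with 8 higher and 2 lower. TCF7L1, a TCF repressor, had 13.45 and 11.80 at day 28, against 8.91 and 8.15 at day 0 (4.10 ± 0.73; adjusted p = 0.0064), and TCF7 fell by 2.31 ± 0.58 (adjusted p = 0.019, and between 0.057 and 0.10 without either day 28 library or the untreated clone 7 library). Leaving out the day 28 clone 1 library left 5 YAP and TEAD, 3 TGF-beta and 2 Wnt genes higher. Without the day 28 clone 7 library 4 TGF-beta and 3 Wnt genes were higher, and without the untreated clone 1 library 4 of each. The Wnt genes called lower numbered 0 without day 28 clone 1, 1 without the untreated clone 1 library and 2 without either clone 7 library.

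Of 18 tested genes of FOXO and insulin signalling 5 rose and 1 fell (median 1.18), a share of 27.8% higher, against 19.9% of all genes, and of 33.3% called, against 39.0%. FOXO3 had 12.59 and 13.68 at day 28, against 8.97 and 11.29 at day 0 (3.00 ± 0.78; adjusted p = 0.021), and FOXO1 had 9.95 and 10.13 at day 28, against 6.06 and 8.64 at day 0 (2.69 ± 0.85; adjusted p = 0.041). CITED2, a FOXO target and CBP-binding factor, rose by 2.29 ± 0.71 (adjusted p = 0.037). Over the narrowest spans 14 genes of the list could be tested, with a median of 0.0067, and 2 were called higher and 1 lower. FOXO1 lost its call with the trend on span removed. The adjusted p of FOXO3 was 0.068, 0.064 and 0.13 without the untreated clone 1, the day 28 clone 1 and the day 28 clone 7 library, that of FOXO1 lay between 0.13 and 0.16 without the same libraries, and that of CITED2 was 0.15, 0.20 and 0.083 without the untreated clone 7, the day 28 clone 1 and the day 28 clone 7 library. The number called higher fell to between 1 and 2 without those 3 libraries, and FOXO3 differed by -0.93 over its narrowest span. Of 33 lysosome and autophagy genes 7 rose (21.2%, near the 19.9% of all genes) and 2 fell. ULK1, the kinase that starts autophagy, had 12.66 and 12.77 at day 28, against 11.14 and 10.44 at day 0 (1.93 ± 0.32; adjusted p = 0.0055), and MITF, a transcription factor of the lysosomal TFE family, rose by 3.16 ± 0.64 (adjusted p = 0.0094, and 0.056 without the day 28 clone 7 library). With the clone as a replicate block 11 were called higher. Without the day 28 clone 7 library 1 was called higher, and without the untreated clone 7 library 3.

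Chromatin regulators changed in both directions. Of 25 tested 7 rose, namely 6 histone demethylases of the KDM family and TET3, and 9 fell, among them the demethylase KDM1A, the methyltransferases EZH2 and DNMT1 and 5 high-mobility-group genes. KDM2A had 13.75 and 13.83 at day 28, against 11.14 and 11.47 at day 0 (2.49 ± 0.28; adjusted p = 0.0025), and TET3, which oxidises methylcytosine, rose by 3.42 ± 0.71 (adjusted p = 0.010, 0.068 without the day 28 clone 1 library and 0.057 without that of clone 7). The largest falls of the list were those of HMGA1 and HMGA2, given above. Without the day 28 clone 1 library 3 were called higher, and 4 without that of clone 7 or without the untreated clone 1 library. Over the narrowest spans 1 of the 16 that could be tested was called higher, and with the trend on span removed 3 of 25.

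The shares called were 7.14% in the BCL2 family, 28.6% among AP-1 and early genes and 35.3% among secreted factors of senescent cells, against 39.0% of all genes. Of 14 BCL2-family genes 1 rose and none fell (median -0.24, which became 0.19 with totals over nuclear genes). It was BCL2, an inhibitor of apoptosis, with 10.02 and 11.15 at day 28, against 7.53 and 9.21 at day 0 (2.21 ± 0.64; adjusted p = 0.031, and between 0.061 and 0.17 without either day 28 library or the untreated clone 1 library). Of 14 AP-1 and early genes 2 rose and 2 fell. None was lower without the untreated clone 7 or the day 28 clone 1 library, 4 were higher and 1 lower with totals over nuclear genes, and 4 higher and none lower with the trend on span removed. FOS had 15.13 and 13.14 at day 28, against 11.69 and 12.04 at day 0 (2.27 ± 0.57; adjusted p = 0.019, and 0.070 without the untreated clone 1 library). Of 17 secreted factors and markers of senescent cells 2 rose and 4 fell. LMNB1, lamin B1, had 10.77 and 9.72 at day 28, against 12.98 and 12.92 at day 0 (-2.70 ± 0.38; adjusted p = 0.0037). TIMP2, a metalloprotease inhibitor, rose by 2.80 ± 0.42 (adjusted p = 0.0042), IL6 by 2.32 ± 0.72 (adjusted p = 0.039, and between 0.095 and 0.19 without either day 28 library or the untreated clone 7 library), and IGFBP4 fell by 3.03 ± 0.29 (adjusted p = 0.0023). With the clone as a replicate block 3 BCL2-family genes were called lower and 4 early genes higher. In all lists together, 123 genes rose and 331 fell among 869 tested, where 19.9% of all genes rose and 19.1% fell.

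The response in G1 was compared with that in S and G2, which rest on clone 1 alone at day 28. No gene of 12403 passed the test of the difference between the day effect in G1 and the mean day effect in S and G2 (0.0%; limma, smallest adjusted p 0.26), by voom none either, while 1271 genes (10.2%) had an unadjusted p under 0.05, and 1473 by voom. Of the 2462 genes higher in G1, 96.1% were also higher at day 28 in S and 94.3% in G2. Of the 2374 lower genes, 93.5% were lower in S and 94.0% in G2. These shares use the clone 1 libraries of other phases. By the tested difference, which takes both clones in G1, the cell-cycle lists were where the phases were furthest apart. The S and G2 differences below are of clone 1 only, so clone and phase are mixed where G1 stands for both clones. The mitosis list differed by a median of -2.48 in G1 (-1.38 in clone 1), against -0.40 in S and -0.38 in G2. Of its 46 genes 34 had an unadjusted interaction p under 0.05. The licensing list differed by -1.67 in G1 (-1.62 in clone 1), against -0.37 in S and -0.58 in G2. MKI67 differed by -3.84 in G1 over both clones, against -0.25 in S and -0.23 in G2. Glycolysis, cholesterol synthesis and ERK targets were lower in all 3 phases. The medians in G1, G1 of clone 1, S and G2 were -1.90, -1.88, -1.60 and -1.53 for glycolysis. They were -1.50, -2.14, -1.77 and -1.71 for cholesterol synthesis, and -1.66, -1.58, -1.23 and -0.89 for ERK targets. With 1 library in 3 of the groups, the median standard error of a gene's difference was 0.49 log2 units.

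Calls depended on the length of the gene. Of 3278 genes with a coding span of up to 10 kb, 8.94% were higher and 29% lower. Of 437 genes spanning over 300 kb, 51.9% were higher and 1.14% lower. Between them the share of higher genes rose with each step, at 13.5%, 21.2% and 44.8%. The median log2 fold change was -0.51 in the shortest genes and 1.64 in the longest (2.37 in clone 1 and 1.06 in clone 7). Genes called higher had a median span of 64.1 kb, and those called lower of 14.1 kb. Since introns are counted, the longest spans are mostly intron. With a smooth trend on span removed from each library, 1992 genes were higher and 2106 lower, and the medians of the mitosis (-2.43), glycolysis (-1.84), ribosomal protein (-1.21), interferon (0.91) and FOXO (1.35) lists kept their signs. Those of p53 targets (0.03), class I (0.34), keratins (0.35), CDK inhibitors (0.07), lysosome (0.02) and collagen (-0.23) lists changed theirs. Over the narrowest spans the FOXO median was 0.0067. The part of unspliced RNA or genomic DNA in this pattern was not tested.

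**Figure D5:**
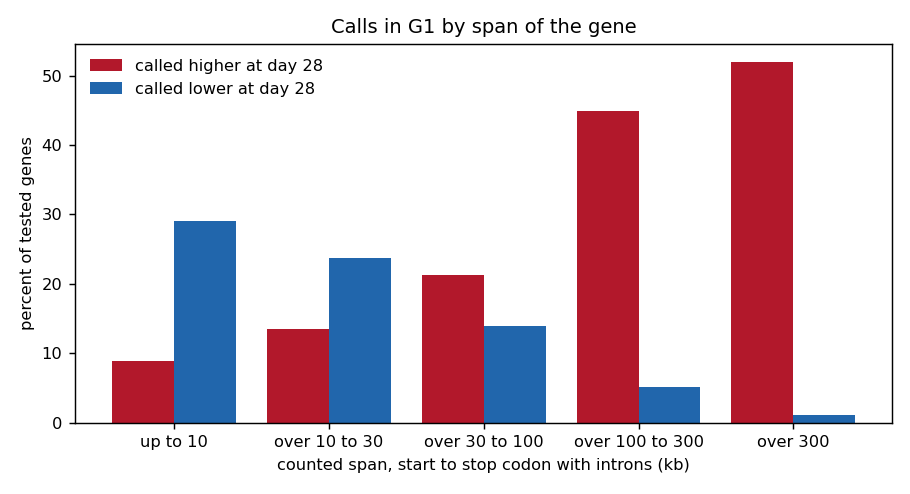
Share of tested genes called higher (red) and lower (blue) at day 28 in G1, by coding span from start to stop codon with introns, in kb. The share called higher is 8.94% up to 10 kb and 51.9% over 300 kb, and the share called lower is 29% and 1.14%.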

How the data were processed

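The authors deposited log2 values per coding transcript in 1 table, and each of its 9 value columns matched 1 sample by name. HISAT2 2.1.0, DESeq2 (no version) and the build GRCh38 stand in the submitters' processing notes. The read counter and scaling are not given in the sources used here. The deposited log2 values are whole reads times 1 factor per library, with 0.9 reads for none (100% of values up to 1000 reads within 0.05 of a whole number). The highest row per gene (the widest span in 97.7%) was kept, put on the linear scale, and 1 added before log2. Genes with a mean of at least 7.01, worth 10 reads in the shallowest library, were tested (12403 of 20435) in R 4.3.3 with limma 3.58.1 (6 group means over 9 libraries, trend, Benjamini-Hochberg over all genes). The deposited values are log2 of scaled reads, and the main test was on these with equal weight for each library, not a count model. A voom fit on the recovered reads was an alternative. Python 3.11.15, numpy 2.4.6, pandas 2.3.3 and matplotlib 3.10.9 were used. Scripts were tested on simulated data. Intervals are standard errors.

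The libraries, gene lists (43, with 869 tested genes) and naming rule were chosen with earlier results of these data known. Named genes are the 15 largest changes each way (adjusted p under 0.05, mean log2 CPM of at least 3 in G1, no overlap of groups, no pseudogene or clone symbol), up to 4 called genes of each list and 25 fixed regulators, of which some list members are not reported here. NRG1, ERBB3, PRIM1, LDHB and TIMP2 overlap another gene on the same strand, and HSPA8 and HSPD1 have processed copies, so their values are less certain. The clone number marks the same clone on both days. Its deviations correlated at 0.114 between day 28 G1 and day 0 G1, at 0.295 between day 28 G1 and day 0 S, and at 0.651 between day 0 G1 and day 0 S. Alternatives were other scalings, filters, pseudocounts, spans, background subtraction, a clone block, voom, G1 libraries alone and leaving out each G1 library.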

Additional observations from a re-analysis of the deposited data

Results flagged for a closer look

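The pairs of the 2 clones moved in opposite directions in 5 of the regulators and 10 of the gene lists described. Each value is the day 28 minus day 0 log2 difference of clone 7 minus that of clone 1, from 1 library against 1 in each clone, and the difference was not tested.

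For mRNAs of the mitochondrial genome the difference was -2.63 (-1.02 in clone 7 and 1.61 in clone 1), beside mitochondrial read shares of 19.6% at day 28 and 6.07% at day 0 in clone 1, and of 8.61% and 10.7% in clone 7. Among single genes it was 1.73 for CCND1 (0.10 in clone 7 and -1.64 in clone 1), 1.39 for CDKN1A (0.56 and -0.83), -1.32 for CDKN1B (-1.10 and 0.22), -0.864 for RB1 (-0.04 and 0.82) and -1.68 for RBL1 (-0.51 and 1.17).

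Among list medians it was -1.23 for mutagenesis and repair genes (-1.11 in clone 7 and 0.12 in clone 1), 0.819 for G1 cyclins and CDKs (0.10 and -0.72) and -0.712 for CDK inhibitors and pocket proteins (-0.28 and 0.44). It was 0.623 for class I antigen presentation (0.23 and -0.39), 0.726 for epithelial adhesion (0.57 and -0.15) and 0.649 for keratins (0.39 and -0.26). It was 0.294 for AP-1 and early genes (0.15 and -0.15), 0.76 for lysosome and autophagy genes (0.36 and -0.40) and 1.56 for the 2 tested leukocyte markers, CD68 and ITGAM (0.47 and -1.09). The untreated clone 7 library had 8.83 M reads, so small differences in that pair carry counting error as well.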

How the results depend on the processing

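Of the 183 named genes 173 were called. Of these, 119 could be tested in all 17 other settings and 72 never lost the call, while 54 could not be tested over the narrowest spans and 34 of them never lost it in the other 16. The narrowest spans and the removed span trend cost 17 calls each. Counts of genes called higher and lower moved from 2462 and 2374 to 3750 and 1348 with totals over nuclear genes, to 3743 higher by voom, and to 998 higher over the narrowest spans. List genes called higher moved from 123 to 187 with totals over nuclear genes and to 49 over the narrowest spans. Leaving out 1 G1 library gave between 1096 and 2348 genes higher, between 1419 and 1794 lower, between 63 and 110 list genes higher and between 232 and 274 list genes lower, the lowest without day 28 clone 1. It moved the fold by over 1.5 times in 63 of the 173 called genes and lost 61 calls in at least 1 of the 4 cases, with no change of sign. Each such fit had 1 library in 1 of the groups, and the cause was not tested. With the clone as a replicate block 3060 genes were higher and 3035 lower, among them 2459 of the 2462 and all 2374 called without it, and among named genes ERBB3 gained a call and none lost one. These differences changed sign. Over the narrowest spans FOXO3 was at -0.93, MSH6 at 0.18 and RBL1 at -0.30. With background subtracted NRG1 and ERBB4 were each at -0.51. With the span trend removed NRG1 was at -0.33, CDKN1A at 0.44, CDKN1B at 0.045, RB1 at -0.79 and RBL1 at -0.29. With totals over nuclear genes CDKN1A was at 0.29. Leaving out 1 G1 library gave between -0.74 and 0.47 for CDKN1A, -0.99 and 0.11 for CDKN1B, -0.057 and 0.83 for RB1, -0.30 and 0.96 for RBL1, and -2.26 and 0.61 for CDT1. The 8.83 M reads of the untreated clone 7 library limit all low genes.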
